A study of Mus musculus with 6 samples.

Results

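GABAergic interneurons, the local inhibitory neurons of the hippocampus, were selected from Drop-seq data of the CA1 field by marker UMIs. In this method a cell and a barcoded bead meet in 1 droplet, and every captured transcript is tagged with the barcode of its cell and with a unique molecular identifier (UMI). The study asked how single CA1 cells respond to recombinant human erythropoietin (EPO), a hypoxia-inducible growth factor. All mice were male C57Bl6 at postnatal day 28 and received 1 injection, and CA1 was taken 6 h later. Placebo mice 1, 3 and 5 received placebo, and EPO mice 2, 4 and 6 received EPO at 5000 IU/kg. The labels also carry D1 for mice 1, 2 and 3 and D2 for mice 4, 5 and 6, and what the D number stands for is not stated there. A barcode was taken as GABAergic when it had more than 500 and at most 8000 genes, at most 40% mitochondrial UMIs and a UMI in at least 2 of Gad1, Gad2, Slc32a1, Dlx1 and Dlx6os1. Of 6000 deposited barcodes, 1632 were within the limits on genes and mitochondrial UMIs, and 75 of these were GABAergic, against 1557 other barcodes. There were 7, 1 and 22 GABAergic barcodes in placebo mice 1, 3 and 5, and 9, 22 and 14 in EPO mice 2, 4 and 6. Retained barcodes held 267231 UMIs in the shallowest library, placebo mouse 3, and 2150763 in the deepest, EPO mouse 4.

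Interneurons make GABA with the glutamate decarboxylases Gad1 and Gad2 and load it into vesicles with the transporter encoded by Slc32a1. The DLX homeobox factors specify these neurons in the embryonic ganglionic eminences and part of the family stays active in the adult cell. Interneurons born in the medial eminence (MGE) include the somatostatin and parvalbumin types as well as ivy cells, whereas the caudal eminence (CGE) yields Vip cells, Cck basket cells and part of the neurogliaform cells. In CA1, parvalbumin and Cck basket cells inhibit the soma of pyramidal neurons, somatostatin cells their distal dendrites, and many Vip cells inhibit other interneurons.

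Some cell barcodes occurred in more than 1 library, and this bears on the GABAergic barcodes of placebo mouse 1. In all, 67 barcodes were found in more than 1 library, 59 of them in placebo mouse 1 and EPO mouse 4. Of these, 41 were retained in both libraries, and no barcode was retained in any other pair of libraries. The copy in EPO mouse 4 held a median of 24.8% of the UMIs of the copy in placebo mouse 1 (17.0% to 31.7%), and a median of 99.4% of its UMIs lay in genes also seen in the placebo 1 copy. Both libraries therefore hold counts under the same 41 barcodes, and nearly all UMIs of the shallower copy lie in genes of the deeper one. The same share was not measured for unrelated barcodes, and the origin of these copies was not tested. The 4 GABAergic barcodes concerned are shown because several results below differ with and without them; capitals mark the bases identical in both libraries, which are all of them.
Placebo 1, copy in EPO 4: ATACATCGTAAC
Placebo 1, copy in EPO 4: GCGCGTCACCGA
Placebo 1, copy in EPO 4: GCTTCAGGGAGG
EPO 2, copy in placebo 1: CAAGCTCGCATC
None of the 4 copies was itself GABAergic within the limits. The barcode GCTTCAGGGAGG had 3 of the 5 markers in both libraries, with 4354 UMIs in placebo mouse 1 and 998 UMIs but only 493 genes in EPO mouse 4. The barcode GCGCGTCACCGA had 20726 UMIs in placebo mouse 1 and was selected on 2 UMIs of Gad2 and 1 of Dlx6os1. It held 47.9% of the UMIs of the GABAergic barcodes of that mouse. It also carried 4 UMIs of Slc17a7, the vesicular glutamate transporter of pyramidal neurons, and 65 of Nrgn, a postsynaptic calmodulin-binding protein of the same neurons.

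The rule genes had unequal weight in the selection. Gad2, which makes GABA at terminals, was seen in 66 of the 75 barcodes with 746 UMIs. Gad1, the decarboxylase that supplies most of the GABA pool, was seen in 58 barcodes with 406 UMIs. Dlx6os1, a long noncoding RNA transcribed opposite Dlx6, was seen in 57 barcodes with 283 UMIs. Slc32a1 was found in 38 barcodes and Dlx1 in 37. Gad2 was thus seen most often, Gad1 and Dlx6os1 in nearly the same number of barcodes, and Slc32a1 and Dlx1 least often. In GRCm38 (mm10), Gad1 lies at chr2:70553072-70602014, Gad2 at chr2:22622205-22693874, Slc32a1 at chr2:158610767-158615748, Dlx1 at chr2:71528113-71533981 and Dlx6os1 at chr6:6820189-6871592. Dlx6os1 is annotated as antisense, so that without a statement on strand in the counting its UMIs and those of Dlx6 cannot be told apart with certainty.

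Selected on these genes, the GABAergic barcodes split by the number of markers. There were 17 with exactly 2 markers, 26 with 3, 16 with 4 and 16 with all 5, and 81 retained barcodes with exactly 1 marker fell just outside the rule. Across that boundary, Nxph1, a neurexophilin of MGE-derived interneurons, was seen in 11.8% of barcodes with 2 markers, in 1.23% of those with 1 and in 38.5% of those with 3. Adarb2, an RNA-editing family member marking CGE-derived cells, was seen in 23.5%, 4.94% and 42.3%. Slc17a7 went the other way, with 11.8%, 34.6% and 3.85%. Median depth was 2161 UMIs with 2 markers and 4959 with 1. Between 1 and 2 markers, depth thus ran with the difference in Slc17a7 and against those in Nxph1 and Adarb2. The part of depth in these shares was not tested. The barcodes with exactly 2 markers thus lay between their neighbors in these 3 genes. The same held for Nrgn, seen in 56.8% of barcodes with 1 marker, 47.1% with 2 and 7.69% with 3. Its share did not fall steadily beyond them, at 50% with 4 and 12.5% with 5. For Nrgn too, depth ran with the difference between 1 and 2 markers. Scaled to the same total of UMIs (CPM), Slc17a7 was at 129.5, 81.1 and 12.4 with 1, 2 and 3 markers. Nrgn was at 1102, 831 and 49.5 CPM. By these levels the barcodes with 2 markers were closer to those with 1 than to those with 3.

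**Figure D1:**
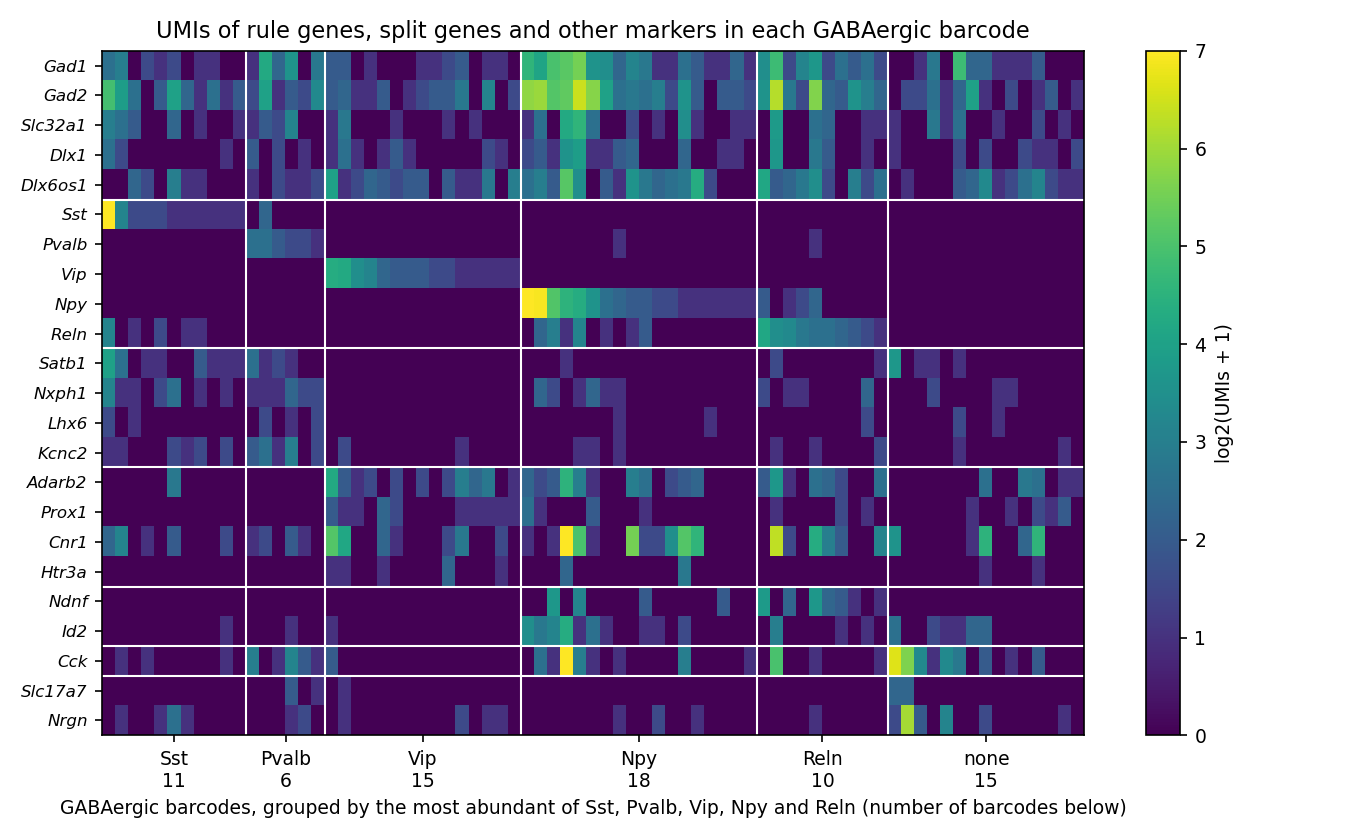
UMIs, as log2(UMIs + 1) with the colour scale ending at 7, of the 5 rule genes, the 5 split genes and 13 other genes (rows) in the 75 GABAergic barcodes (columns), grouped by their most abundant split gene. Vip barcodes lack the other 4 split genes, Npy and Reln overlap, and the 2 barcodes at the left of the group without a split gene hold 4 UMIs each of Slc17a7.

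GABAergic barcodes had a median of 3545 UMIs (931 to 33859) and 1398 genes, against 2623 UMIs and 1199 genes in the other barcodes, and were the deeper ones in every mouse but EPO mouse 2. They had more mitochondrial UMIs in every mouse with at least 5 of them. The median mitochondrial share was 28.6% in placebo mouse 1 against 15.8% in the other barcodes of that mouse, and 14.9% against 8.97% in placebo mouse 5. It was 30.4% against 18.6% in EPO mouse 2, 16.8% against 12.5% in EPO mouse 4, and 9.20% against 4.47% in EPO mouse 6. The difference was positive in 5 of 5 mice, with a mean of 7.93 percentage points ± 4.08 (SD, n = 5; two-sided exact permutation test by sign flips, p = 0.0625, the smallest that 5 mice allow). Without barcodes of more than 1 library, which leaves placebo mouse 1 with too few, it was 6.44 points over the remaining mice.

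Outside the rule genes, the genes with the largest ratio of GABAergic to other barcodes were Npy, Adarb2, Cnr1, Vip and Igf1. As every gene of the selected cells can follow from the selection, these levels are a description and were not tested. Over the 5 mice with at least 5 GABAergic barcodes, 439 of 10738 genes with at least 50 UMIs (4.09%) were higher in them in every mouse and 1804 (16.8%) were lower in every mouse. The median log2 ratio over all these genes was -0.17, and with scaling to nuclear-encoded UMIs only, 511 were higher, 1602 were lower and the median was -0.10. Without barcodes of more than 1 library, which leaves 4 GABAergic barcodes in placebo mouse 1, 352 (3.28%) were higher and 2247 (20.9%) were lower, with a median of -0.26. In this setting, here and below, a gene without a UMI in these 4 counted as lower in that mouse if its other barcodes had any. Levels are in CPM, the UMIs of a gene scaled to the same total of UMIs in every mouse and group of barcodes. For ratios, CPM was averaged over mice first, and the difference of log2(mean CPM + 10) was then taken. All 5 genes of GABA synthesis and handling were higher in every mouse, of which 3 are rule genes. Abat, which degrades GABA, reached 198 ± 160 CPM against 41.2 ± 13.3 (SD, n = 5). Dlx6, the coding neighbor of Dlx6os1, was seen in 23 GABAergic barcodes and in 4 others, at 81.2 ± 27.6 CPM against 0.614 ± 0.597. Dlx2 and Dlx5 had only 2 and 8 UMIs in the GABAergic barcodes.

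Both embryonic lineages were represented. Of the 8 MGE-type genes with at least 50 UMIs, 6 were higher in every mouse, against 4.09% of all genes. Only Kcnc1 and Kcnc2 were so without barcodes of more than 1 library, against 3.28% of all genes. Kcnc1, a fast delayed-rectifier potassium channel, ran from 347 to 781 CPM in the 5 mice against 16.5 to 41.2 CPM in other barcodes, without overlap. Nxph1 was at 125 ± 75.6 CPM against 4.27 ± 1.58, and Satb1, a chromatin organizer needed for somatostatin cell maturation, at 128 ± 38.4 against 55.1 ± 12.3 (SD, n = 5). Lhx6, the homeobox factor of the MGE lineage, had 15 UMIs in 10 GABAergic barcodes and 7 UMIs in all others. Of 6 CGE-type genes with enough UMIs, 2 were higher in every mouse, against the same 4.09% of all genes. These were Adarb2, at 438 ± 366 CPM against 3.89 ± 2.02, and Cnr1, the cannabinoid receptor of Cck basket terminals, at 1258 ± 1190 against 59.4 ± 18.3. Cnr1 varied between mice, from 233 CPM in EPO mouse 6 to 3268 CPM in placebo mouse 5. Prox1, the homeobox factor of the CGE lineage, was at 92.9 ± 68.8 CPM and higher in 3 of 5 mice, and Htr3a, a serotonin-gated channel, was seen in 9 GABAergic barcodes and in 1 other.

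Of the 9 fast-spiking and synaptic genes, 6 were higher in every mouse, against 4.09% of all genes. With scaling to nuclear-encoded UMIs 7 were higher, against 511 of all 10738 genes. Erbb4, the neuregulin receptor of interneurons, was at 385 ± 190 CPM against 22.5 ± 13.3 (SD, n = 5). Grik1, a kainate receptor subunit, was at 207 ± 138 against 9.99 ± 6.00, and Gria4, an AMPA receptor subunit, at 329 ± 165 against 76.8 ± 14.6. Kcnip1, a potassium channel partner, was at 100.1 ± 32.7 against 6.28 ± 3.40, and Synpr, a synaptic vesicle protein, at 139 ± 98.2 against 10.7 ± 3.84. Syt2, a calcium sensor of fast release, had 13 UMIs and was higher in 2 of 5 mice only. Among the 20 genes with the largest ratio outside the rule stood also Igf1, a growth factor secreted by subsets of interneurons, at 181 ± 94.8 CPM against 2.16 ± 2.13, and the collagen genes Col19a1 and Col25a1.

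Genes of glia and vessels were mostly lower in the GABAergic barcodes, although not at 0. All 5 oligodendrocyte, all 5 astrocyte and all 4 endothelial markers were lower in every mouse, against 16.8% of all genes. The same held for 2 of 5 microglial markers, 2 of 3 mural markers and 2 of 3 markers of oligodendrocyte precursors with at least 50 UMIs. Vcan, a proteoglycan of these precursors, was at 69.2 ± 92.3 CPM against 44.5 ± 12.7 and was lower in 3 of 5 mice. Mbp, the myelin basic protein, was still seen in 26 of the 75 barcodes, at 223 ± 270 CPM against 1187 ± 453 (SD, n = 5). Summed levels of the 5 oligodendrocyte markers ran from 281 CPM in placebo mouse 5 to 3863 CPM in placebo mouse 1. Of 6 glutamatergic markers, 3 were lower in every mouse. Without barcodes of more than 1 library all 6 were lower, against 20.9% of all genes. Their summed level was 2891 CPM in placebo mouse 1, 158 in placebo mouse 5, 260 in EPO mouse 2, 534 in EPO mouse 4 and 931 in EPO mouse 6. Placebo mouse 1 was the only one above its other barcodes (1835 CPM), and the barcode GCGCGTCACCGA alone gave 65 of its 70 Nrgn UMIs. Of 4 CA1 pyramidal markers 0 were lower in every mouse, and 2 without barcodes of more than 1 library. Wfs1, an endoplasmic reticulum protein of these neurons, was at 159 ± 245 CPM against 124 ± 48.9 (SD, n = 5). Slc17a7 was seen in 5 GABAergic barcodes, and 3 of these held at least 3 UMIs of it. Of 4 Cajal-Retzius genes in the table, which mark another Reln-rich cell type, Reln and Ndnf were higher in 4 of 5 mice. Trp73 and Lhx1 were at 0 in all 75 barcodes but had only 4 and 1 UMIs in the 1557 others, so that they do not tell these cells apart here. Of the microglial markers, C1qa was at 0, and Csf1r, Cx3cr1 and C1qb had 6, 4 and 2 UMIs.

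**Figure D2:**
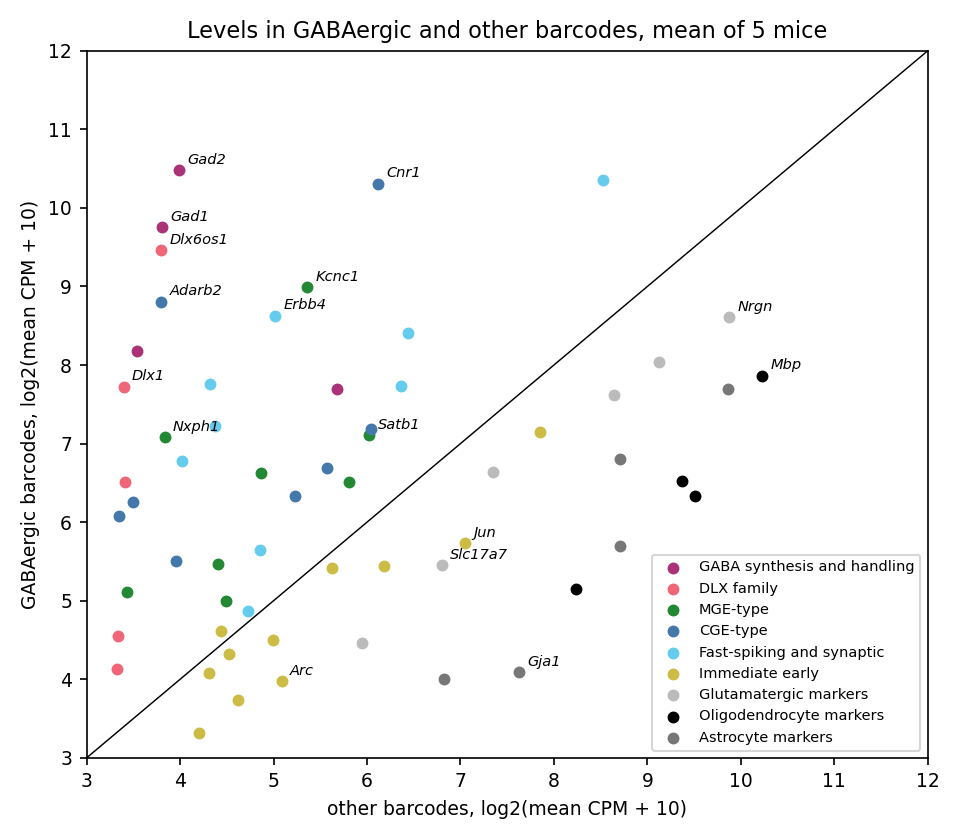
Mean level over 5 mice in GABAergic barcodes (vertical) against other barcodes (horizontal), as log2(mean CPM + 10), for genes of 9 lists; the line marks equal levels. Genes of GABA handling, the DLX family and both lineages lie above the line, and oligodendrocyte and astrocyte markers lie below it.

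Genes of EPO receptor signaling were low in GABAergic and other barcodes alike, with summed levels of the 9 genes of 86.8 to 135 CPM and 91.2 to 129 CPM over the 5 mice. Epor, the receptor itself, and Stat5a, Cish, Socs3 and Pim1, a signal transducer and targets of the pathway, had 0 UMIs in the 75 GABAergic barcodes, and Epor had 9 UMIs in all other barcodes together. At 0 of 75 cells, up to 4% of such cells could carry a UMI, by counting error alone (3 counts). Jak2, the receptor's kinase, was seen in 11 GABAergic barcodes at 36.3 ± 25.4 CPM, against 42.7 ± 2.84 in the others (SD, n = 5). Bcl2l1, a survival gene, was also seen in 11. Of 4 genes with at least 50 UMIs, 0 were higher or lower in every mouse, against 4.09% and 16.8% of all genes. Of 11 immediate early genes, which neurons switch on with activity, 3 were lower in every mouse, namely Fosb, Jun and Arc, and 0 were higher. These 3 stand beside 16.8% of all genes lower in every mouse. Without barcodes of more than 1 library 5 were lower, with Egr1 and Junb added, beside 20.9% of all genes. Only 4 GABAergic barcodes of placebo mouse 1 were left in that setting. Jun was at 43.3 ± 32.8 CPM against 123 ± 22.7, and Arc at 5.75 ± 10.0 against 24.0 ± 9.42.

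The split genes divided the GABAergic barcodes into partly exclusive sets. Of the 75, 15 had none of Sst, Pvalb, Vip, Npy and Reln, 42 had 1, 17 had 2 and 1 had 3. In GRCm38, Sst lies at chr16:23889573-23890958, Pvalb at chr15:78191114-78206400, Vip at chr10:5639218-5647617, Npy at chr6:49822710-49829507 and Reln at chr5:21884454-22344702. The largest overlap was of Npy, a peptide of neurogliaform and ivy cells, with Reln, a secreted glycoprotein, at 11 barcodes, 50% of each set. Of the 12 Sst barcodes, 5 also had Reln, and 0 had Npy. Vip was seen together with none of the other 4 genes, in 0 of 15 barcodes, which allows a share of up to 20% by the same limit. Pvalb was seen with Npy in 2 barcodes and with Sst in 1.

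Each split gene was seen more often than in barcodes of a cell type that should lack it, where free RNA can give UMIs. In 259 oligodendrocyte-marked barcodes, deeper at a median of 5194 UMIs, Sst was seen in 1.54%, Pvalb in 0.772%, and Vip, Npy and Reln in 1.16% each. In the GABAergic barcodes, at a median of 3545 UMIs, the shares were 16%, 10.7%, 20%, 29.3% and 29.3%. Thinned to 1000 UMIs each, 74 GABAergic barcodes showed 8.11%, 4.05%, 17.6%, 20.3% and 14.9%, and the oligodendrocyte-marked ones at most 0.389%. The counts were uneven between cells. Sst had 159 UMIs, 135 of them in 1 barcode of EPO mouse 4, and Npy had 374, of which 134 came from 1 barcode of placebo mouse 5.

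Sst barcodes carried MGE-type genes. Their 9 MGE-type genes summed to 2481 CPM and their 8 CGE-type genes to 649 CPM, and 11 of 12 barcodes held more UMIs of the former and 0 held more of the latter. Satb1 was seen in 9 of 12 Sst barcodes and in 10 of the 63 without Sst, and Nxph1 in 8 and 18. Among the leading genes outside the lists was Trpc6, a cation channel, seen in 5 of 12 against 2 of 63. Of the 12, 6 had exactly 2 rule markers. Dlx6os1 was seen in 5 of 12, against 52 of 63 without Sst, and Prox1, Htr3a, Cxcl14 and Ndnf in 0.

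Pvalb barcodes, 8 in 3 mice, were the deepest, with a median of 8655 UMIs and at least 3 rule markers each. MGE-type genes summed to 1446 CPM against 398 CPM for CGE-type genes, and 7 of 8 held more of the former. Kcnc2, a channel of fast spiking, was seen in 7 of 8 and in 14 of 67 without Pvalb. Kcnt1, a sodium-activated potassium channel, was seen in 6 of 8 against 6 of 67, and Me3, a mitochondrial malic enzyme, in 7 against 15. In these deep barcodes some genes of other cells were also seen more often. Mbp was seen in 8 of 8 against 18 of 67 (285 and 120 CPM). Neurod6, a glutamatergic marker, was seen in 4 against 7 (91.1 and 159 CPM). Pvalb itself was sparse, with 20 UMIs in all and at most 5 in a barcode.

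Vip barcodes were found in all 6 mice and were the shallowest, with a median of 1595 UMIs. Their CGE-type genes summed to 3797 CPM and their MGE-type genes to 830 CPM, and 13 of 15 held more CGE-type UMIs. Adarb2 was seen in 11 of 15 and Prox1 in 10, against 24 and 12 of the 60 without Vip, whereas the MGE-type genes Nxph1, Satb1, Lhx6 and Sox6 were seen in 0 of 15. Other MGE-type genes were seen with Vip. Elfn1, a synaptic adhesion protein, was seen in 4 of 15 against 6 of 60. Kcnc1 was seen in 6 against 43 but at 528 CPM against 478, and Grin3a, an NMDA receptor subunit, in 3 against 13 at 101 CPM against 82.1. Calb2, the calcium-binding protein calretinin, was seen in 5 Vip barcodes and in 0 of 60 others, and Penk, the enkephalin precursor, in 6 and 2. Calretinin is known from Vip cells that contact other interneurons.

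Npy and Reln barcodes, 22 each, combined CGE-type sums of 3608 and 3726 CPM with the highest levels of neurogliaform and ivy genes, 1436 and 1137 CPM against 134 to 228 CPM with Sst, Pvalb or Vip and 380 CPM with no split gene. Cnr1 alone gave 357 of the 515 CGE-type UMIs with Npy and 387 of the 603 with Reln. Without Cnr1 the CGE-type sums were 1107 and 1335 CPM, against MGE-type sums of 722 and 1020 CPM, and that of the Vip barcodes was 2137 CPM. Barcode by barcode they were mixed, with more MGE-type UMIs in 8 Npy and 12 Reln barcodes and more CGE-type UMIs in 10 of each. Without Cnr1, 12 and 13 held more MGE-type UMIs, and 8 and 9 more CGE-type UMIs. Ndnf, a secreted factor of neurogliaform cells, was seen in 10 of 22 Reln barcodes and in 1 of 53 without Reln, and in 7 of 22 Npy barcodes. Id2, an inhibitor of helix-loop-helix factors, was seen in 10 of 22 Npy barcodes against 12 of 53 without Npy. Kit, a receptor tyrosine kinase, was seen in 9 against 6, and Lamp5, a lysosome-associated protein, in 8 against 10. Nos1, the neuronal nitric oxide synthase of ivy cells, went the other way, in 3 of 22 against 8 of 53 and at 35.0 CPM against 57.9. Hapln1, a link protein of the perineuronal matrix, was seen in 8 Npy barcodes against 7 of 53, and Rgs8 and Rgs10, regulators of G-protein signaling, in 11 and 10.

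The 15 barcodes without a split gene were seen in 5 mice, and 5 of them had exactly 2 markers. Their glutamatergic markers summed to 1932 CPM, against 147 to 490 CPM in the 5 sets above, and both barcodes with 4 Slc17a7 UMIs were among them. Leaving out barcodes of more than 1 library, 13 were left, at 1234 CPM. Cck, the cholecystokinin precursor of basket cells and of many pyramidal neurons, was seen in 9 of the 15, at 1527 CPM. Of its 181 UMIs there, 100 and 49 came from the 2 barcodes with 4 Slc17a7 UMIs.

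**Figure D3:**
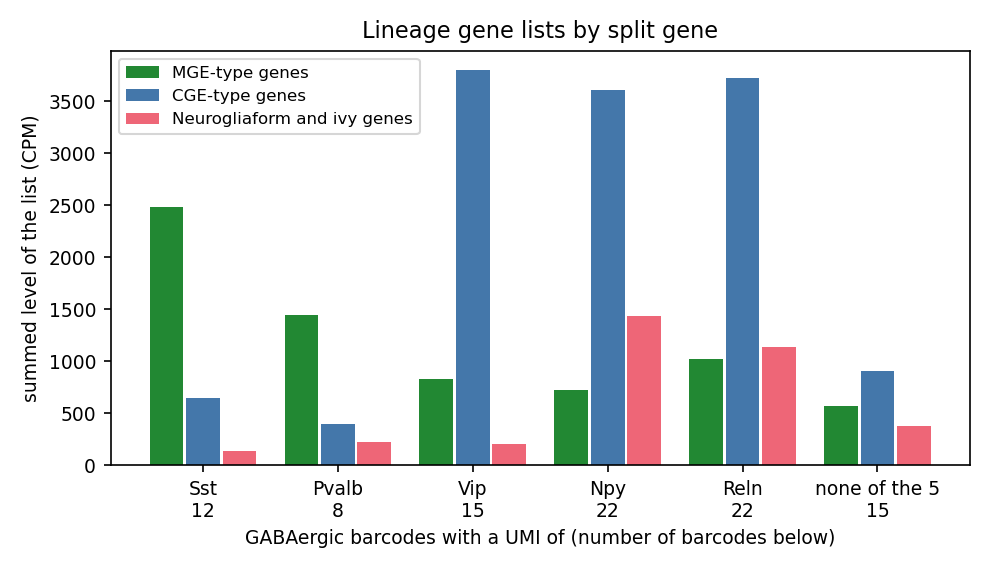
Summed UMIs of the MGE-type (9), CGE-type (8) and neurogliaform and ivy (6) lists, as CPM, in GABAergic barcodes with a UMI of each split gene or of none; a barcode with 2 split genes counts in both. MGE-type genes lead with Sst and Pvalb, CGE-type genes with Vip, Npy and Reln, where Cnr1 gives 66 of 151, 357 of 515 and 387 of 603 CGE-type UMIs.

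EPO and placebo were then compared with the mouse as the replicate. The GABAergic share of retained barcodes was 2.55% (exact Clopper-Pearson 95% interval 1.03% to 5.17%, counting error only), 1.11% (0.0281% to 6.04%) and 6.90% (4.37% to 10.3%) in placebo mice 1, 3 and 5. It was 3.56% (1.64% to 6.65%), 5.43% (3.44% to 8.11%) and 4.83% (2.66% to 7.97%) in EPO mice 2, 4 and 6. The lowest and the highest share were both of placebo mice, and the EPO mice lay between. The means were 3.52% ± 3.01 with placebo and 4.61% ± 0.957 with EPO (SD, n = 3 each), and they differed by 1.09 percentage points, less than the SD of the placebo mice (two-sided exact permutation test, p = 0.6, smallest possible 0.1). Within D1 the EPO mouse lay 1.73 points above the placebo mice, and within D2 the EPO mice lay 1.77 points below the placebo mouse (-1.77). Without placebo mouse 3, which had 1 GABAergic barcode, the difference was -0.115 points. Without barcodes of more than 1 library the shares were 1.77%, 1.11% and 6.90% with placebo and 3.17%, 6.08% and 4.83% with EPO, a difference of 1.43 points. A further 24 barcodes outside the limits on genes and mitochondrial UMIs had at least 2 markers and were not counted.

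**Figure D4:**
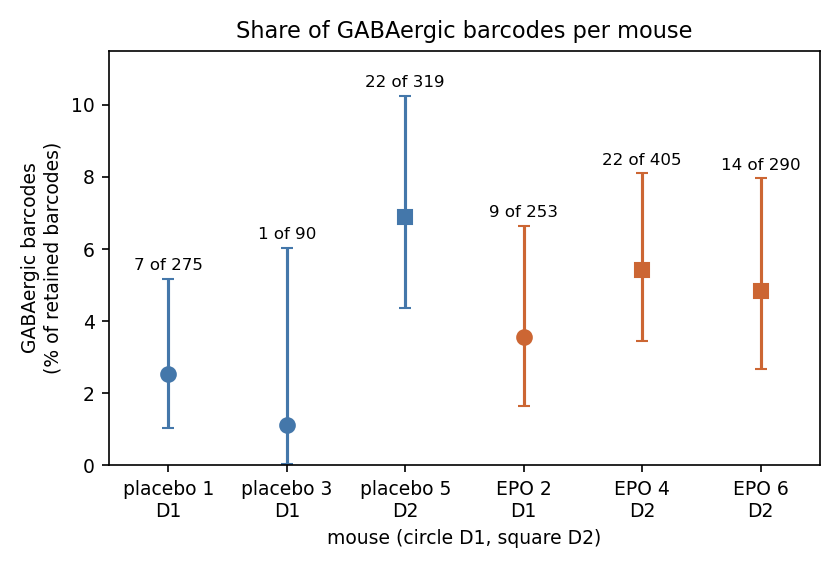
Share of GABAergic barcodes among retained barcodes in each mouse, in percent, with exact 95% intervals that cover counting error only and the counts above them; circles are D1 and squares D2. The intervals overlap widely, and the 3 EPO mice lie within the range of the 3 placebo mice.

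The makeup by split gene was compared in the same way. Placebo mouse 3 was left out here and below, as it had 1 GABAergic barcode, so that 2 placebo mice stood against 3 EPO mice and the smallest two-sided exact p was 0.2. Without barcodes of more than 1 library, placebo mouse 1 had too few as well. In that setting placebo mouse 5 alone stood against the EPO mice. Reln was seen in 0% and 31.8% of the GABAergic barcodes of placebo mice 1 and 5 and in 44.4%, 27.3% and 35.7% of those of EPO mice 2, 4 and 6. The mean difference was 19.9 points (two-sided exact permutation test, p = 0.4), 5.84 points without barcodes of more than 1 library and 3.99 points without placebo mouse 1. Sst was seen in 0% and 13.6% with placebo and in 11.1%, 9.09% and 42.9% with EPO, a difference of 14.2 points (exact permutation test, p = 0.6). It was 3.28 points without EPO mouse 6, 3.25 with at least 2 UMIs required and 7.85 without barcodes of more than 1 library. Vip was seen in 14.3% and 9.09% with placebo and in 33.3%, 31.8% and 7.14% with EPO, a difference of 12.4 points (exact permutation test, p = 0.6). It was 16.4 points without barcodes of more than 1 library, and 7.79 to 20.9 points with each mouse left out in turn, without EPO mouse 2 and without EPO mouse 6. Pvalb differed by 6.06 points and Npy by -3.39 points (exact permutation tests, p = 0.6 and 0.8), or by 13.2 and -5.90 points without barcodes of more than 1 library. After adjustment over the 5 genes every p was 0.75 or 0.8. Of the 7 and 9 GABAergic barcodes of placebo mouse 1 and EPO mouse 2, 1 barcode is 14.3% and 11.1%. With every barcode thinned to 1000 UMIs, the differences were 3.03 points for Sst, -3.25 for Pvalb, 13.1 for Vip, -10.1 for Npy and 14.1 for Reln.

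Across genes, UMIs of the GABAergic barcodes were summed per mouse and compared by edgeR's quasi-likelihood test in 3930 genes. At an adjusted p of 5%, 0 genes (0%) were called, at a depth of 34560 to 177904 UMIs per mouse. In the sums of placebo mouse 1 and EPO mouse 6, 1 barcode each gave 47.9% and 41.5% of the UMIs. Both barcodes had only 2 rule markers and 4 Slc17a7 UMIs. At an unadjusted p under 0.05 stood 89 genes, and DESeq2 and limma called 0 genes as well, with 33 and 101 at an unadjusted p under 0.05. Without barcodes of more than 1 library, which leaves only placebo mouse 5 as placebo, 8 genes were called, and with each mouse left out in turn 0 to 11 were called, 11 of them without placebo mouse 1 and 4 without placebo mouse 5. The groups did not overlap in 701 genes (17.8%), and the median log2 fold change was 0.0047. All 5 genes of GABA handling were tested and 0 were called, with log2 fold changes of -0.14 for Gad2 and -0.26 for Gad1. The same held for 3 of the DLX family, 5 MGE-type, 6 CGE-type, 5 neurogliaform and ivy and 7 synaptic genes. The 5 MGE-type genes all had positive log2 fold changes (median 0.68), and 5 of 6 CGE-type genes had negative ones (median -1.19). The median over all genes tested was 0.0047, and these directions were not tested. Of the split genes, Vip of CGE-derived cells was at 2.76. Sst and Pvalb of MGE-derived cells were at 2.58 and 0.35.

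In 4 of the 6 genes with the smallest p, 1 barcode gave 41.5% to 69.9% of the UMIs, and in Chrm2 and Cst3 1 barcode gave 25% and 18.9%. Yjefn3 was at 69.4 and 527 CPM in placebo mice 1 and 5 and at 28.9, 45.0 and 12.3 CPM in EPO mice 2, 4 and 6. Its groups did not overlap (log2 fold change -3.16, SE 0.78, edgeR adjusted p = 1.00), and 1 barcode of placebo mouse 5 gave 51 of its 73 UMIs. Sema3c, a secreted axon guidance protein, was at 162 and 659 CPM with placebo and at 57.9, 5.62 and 110 CPM with EPO, with 39 of 94 UMIs from the same barcode. Cst3, an inhibitor of cysteine proteases, was at 2012 and 1142 CPM with placebo and at 174, 393 and 613 CPM with EPO (log2 fold change -1.90, SE 0.56, edgeR adjusted p = 1.00), and was spread over 48 barcodes. Cst3 is abundant in glia. Summed oligodendrocyte markers were at 3863 and 281 CPM in placebo mice 1 and 5. In EPO mice 2, 4 and 6 they were at 550, 1832 and 674 CPM. The part of glial RNA in the Cst3 difference was not tested. Among the genes higher with EPO, Hlf, a circadian leucine zipper factor, was at 0 and 35.1 CPM with placebo and at 116, 95.6 and 539 CPM with EPO, with 34 of 69 UMIs from 1 barcode of EPO mouse 6. Chrm2, the muscarinic M2 receptor, was at 23.1 and 8.79 CPM with placebo and at 57.9, 169 and 172 CPM with EPO (log2 fold change 3.40, SE 0.97, edgeR adjusted p = 1.00). Its 48 UMIs came from 11 barcodes, 6 of them of EPO mouse 4. Sv2b, a synaptic vesicle protein, had 1 and 0 UMIs with placebo and 0, 20 and 22 with EPO, so that its groups overlapped. That Hlf barcode of EPO mouse 6, the deepest of all with 33859 UMIs, held 41.5% of the GABAergic UMIs of its mouse. It gave 20 of the 43 Sv2b UMIs and had 4 Slc17a7 UMIs. Its only 2 rule markers were Slc32a1 and Dlx1 with 1 UMI each, and Gad1 and Gad2 were at 0.

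Cck depended on which barcodes were counted. It was at 1365 and 1880 CPM in placebo mice 1 and 5 and at 116, 242 and 1360 CPM in EPO mice 2, 4 and 6 (log2 fold change -1.47, SE 0.67, edgeR adjusted p = 1.00). The level of EPO mouse 6 came almost wholly from the deepest barcode, with 100 of 111 UMIs. With at least 3 rule markers required, Cck was at 498 and 2001 CPM with placebo and at 121, 163 and 253 CPM with EPO, and was the 1 gene called (log2 fold change -2.77, edgeR adjusted p = 0.00631). Without barcodes with 2 or more Slc17a7 UMIs it was at 444 and 1880 CPM against 116, 240 and 230 CPM, again the 1 gene called (log2 fold change -2.48, edgeR adjusted p = 0.0127). Over the other 13 alternatives its log2 fold change ran from -2.91 to -1.09 and its adjusted p from 0.716 to 1.00. In placebo mouse 5, 168 of 214 Cck UMIs came from 1 barcode that had all 5 rule markers, 22 Npy UMIs and 24584 UMIs in all. At least 5 Cck UMIs were found in 2 and 3 barcodes of placebo mice 1 and 5 and in 0, 5 and 2 of EPO mice 2, 4 and 6, and 7 of these 12 barcodes also had Cnr1.

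**Figure D5:**
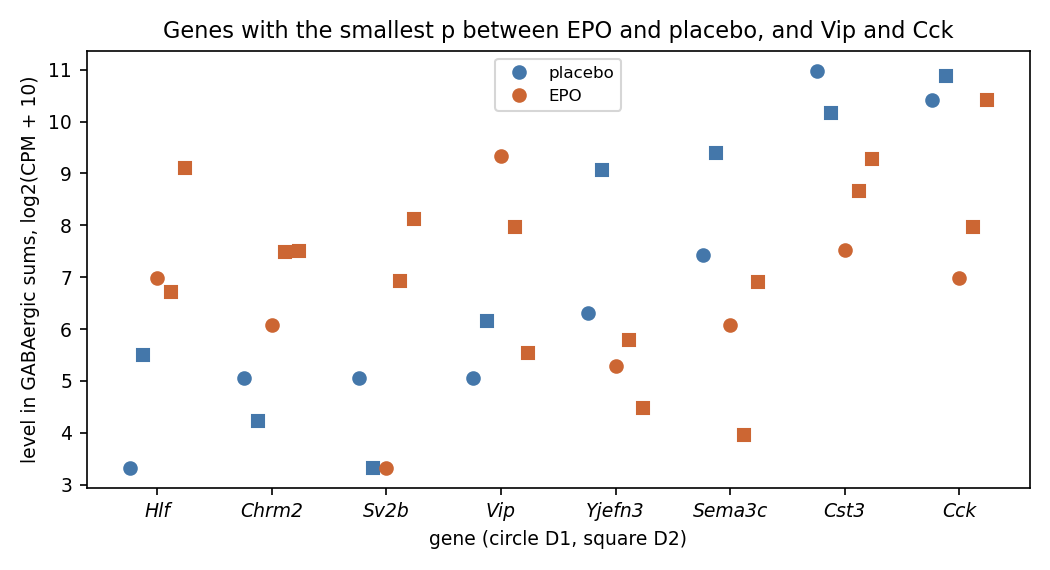
Level in the UMI sums of GABAergic barcodes per mouse, as log2(CPM + 10), of the 6 genes with the smallest p between EPO and placebo and of Vip and Cck; placebo mouse 3 is left out, circles are D1 and squares D2. The groups overlap for Sv2b and Vip, and EPO mouse 6 lies close to the placebo mice for Cck, although just below both.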

How the data were processed

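Single cells of CA1 were measured by Drop-seq in 6 mice. The deposited table holds the authors' UMI counts, not normalized, of 20234 genes in 6000 barcodes, of which each mouse has 1000. Per the submitters' processing notes, bcl2fastq 2.15, STAR 2.4.0 and the build mm10 were used, and the annotation and how barcodes were picked are not given in the sources used here. A missing value was counted as 0. Members and gene lists were chosen with earlier results of these data known. No doublet caller was run, and members with 2 or more Slc17a7 UMIs were left out in an alternative. Each library is 1 mouse by its label, and mice were the replicates.

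Shares were compared by two-sided exact permutation tests over mice (scipy 1.17.1, Python 3.11.15), on mice with at least 5 members except for the share of members itself. UMI sums per mouse were tested in edgeR 4.0.16 (TMM, quasi-likelihood, R 4.3.3), with DESeq2 1.42.0 and limma 3.58.1 as alternatives, and the procedure was tested on simulated counts. The study's filter of more than 1000 genes, other marker numbers, thinning to 1000 UMIs, the D number as a block, other scalings and filters, and each mouse left out were also tried. Leaving out shared barcodes, the deepest member of each mouse, or Cnr1 from the CGE-type sums was chosen after seeing the data.

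Named genes are those of the lists, the 20 highest and 10 lowest ratios of members to other barcodes with the same direction in every mouse and a UMI in at least 15% of the cells, 5 per split gene with a UMI in at least 30% of its cells, and, as no gene was called, the 3 with the smallest p in each direction. Oligodendrocyte-marked barcodes had a UMI in at least 4 of 5 oligodendrocyte markers and were no members. Some genes of the lists are not reported here. Positions are from GENCODE vM21.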

Additional observations from a re-analysis of the deposited data

Results flagged for a closer look

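The share of GABAergic barcodes moved in opposite directions in D1 and D2, with EPO minus placebo at 1.73 percentage points within D1 and -1.77 within D2, and with every EPO mouse above, respectively below, every placebo mouse of its D number. The share of GABAergic barcodes with a Pvalb UMI stood at -14.3 points within D1 and 19.8 points within D2, and that with an Npy UMI at 4.76 and -9.42 points. These opposite directions were not tested, and 1 barcode is 14.3% of those of placebo mouse 1. For Pvalb and Npy placebo mouse 3 was left out, so that D1 held 1 placebo and 1 EPO mouse. The -14.3 points of Pvalb came from 1 barcode of placebo mouse 1 with 5 Pvalb UMIs. That barcode also occurs in EPO mouse 4.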

How the results depend on the processing

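Of 86 alternative values, 71 kept the direction or the count. The difference in the GABAergic share was -0.0188 points with the D number as a block and ran from -0.115 (without placebo mouse 3) to 2.78 points (without placebo mouse 5) with each mouse left out. The Npy difference turned to 4.05 points with at least 2 UMIs and to 9.09 with more than 1000 genes, and ran from -7.29 to 2.06 points with each mouse left out (0.505 without placebo mouse 5, 2.06 without EPO mouse 4). The Pvalb difference turned to -3.25 points after thinning and ran from -1.08 (without placebo mouse 5) to 13.2 points, and that of Vip was -1.18 points with more than 1000 genes. Genes called numbered 1 with at least 3 markers, 1 without members with 2 or more Slc17a7 UMIs, 2 (Cadps2 and Rgs12, both lower with EPO) without the deepest member of each mouse, and 8 without barcodes of more than 1 library. With each mouse left out they ran from 0 to 11, with 11 without placebo mouse 1 and 4 without placebo mouse 5. In these last 3 settings 1 placebo mouse remained, assumed to vary like the EPO mice. The cause was not tested. No paired analysis was possible because placebo and EPO mice share no replicate number. Depth limits every comparison: placebo mouse 3 had 1 GABAergic barcode and placebo mouse 1 had 7.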

Other observations

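The genes here were chosen after their values were seen. Without placebo mouse 1, the 11 genes called by edgeR were Cadps2, Cpne5, Eps8, KCTD12, Krt73, Rgs10, Sema3c, Syt6, Tac2 and Yjefn3, lower with EPO, and Nefm, higher. Of these, Eps8, KCTD12, Krt73, Rgs10, Sema3c, Tac2 and Yjefn3 had their largest count in the same barcode of placebo mouse 5, the one with 24584 UMIs and all 5 rule markers, which held 87.5% of the Krt73 UMIs and 94.4% of the Tac2 UMIs of all GABAergic barcodes. Cadps2, Cpne5 and Syt6 had theirs in another barcode of that mouse with 20282 UMIs, and Nefm in the deepest barcode of EPO mouse 6. Without placebo mouse 5, Hbb-bs, Hpca, Nrgn and Rprml were lower with EPO, with log2 fold changes of -3.74, -3.05, -4.09 and -3.95. Each had its largest count in the barcode GCGCGTCACCGA of placebo mouse 1. It held 63.7% of the Nrgn, 72.7% of the Rprml and 48.6% of the Hpca UMIs, but 17.9% of the Hbb-bs UMIs. Hbb-bs was seen in 6 GABAergic barcodes of that mouse, with 53 UMIs.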
